A study of Mus musculus with 4 samples.

Results

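The genes described here are those of glycolysis and of the response to low oxygen, in RNA-seq libraries of mouse keratinocytes, the main cells of the epidermis. They were taken by gene symbol from a list of 37 genes, of which 35 have a row in the tables, out of 13102 rows in all. The list holds 21 glycolysis genes (transporters, enzymes and regulatory kinases) and 16 hypoxia genes, of which 14 have a row. Car9 and Ankrd37 have no row, so their levels were not analysed here.

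The 4 libraries, 1 per group, come from primary epidermal keratinocytes of neonatal C57BL/6 mice after 48 h in culture. The groups are IL-17A Il17rc KO, cells of mice lacking the interleukin-17 receptor gene Il17rc given interleukin-17A (IL-17A) at 100 ng/mL for 8 h, IL-17A Il17rd KO, cells of mice lacking the related receptor gene Il17rd given the same dose for the same time, IL-17A WT, wild-type cells treated likewise, and untreated WT, wild-type cells without the cytokine. Knockout cells without IL-17A were not analysed here, so a difference of a knockout library cannot be told apart between the genotype itself and the response to IL-17A. As each group is a single library, no difference below is checked by replicates, and no p-values are given.

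Glycolysis turns glucose into pyruvate in the cytosol. Glucose enters through facilitative transporters, is phosphorylated by hexokinase, is committed by phosphofructokinase, and is split and oxidised to pyruvate, which lactate dehydrogenase can reduce to lactate for export. When oxygen is low, the prolyl hydroxylases of the Egln family no longer mark the HIF alpha subunits for destruction, and HIF with its partner ARNT binds hypoxia response elements, whose core is ACGTG or GCGTG, near genes of both groups. HIF is controlled chiefly at the protein level, so the transcript of Hif1a is not a reading of its activity.

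Total counts were 19799746 in IL-17A Il17rc KO, 19711866 in IL-17A Il17rd KO, 19890946 in IL-17A WT and 19904695 in untreated WT. The targeted gene Il17rc had 439 counts in IL-17A Il17rc KO, 1718 in IL-17A Il17rd KO, 1152 in IL-17A WT and 2729 in untreated WT, so its transcript was still counted in its own knockout library. Il17rd had 150, 5, 265 and 252 counts in that order. All 10 keratinocyte markers had counts in every library, led by Krt5 and Krt14, and their summed level was 29702, 32159, 29041 and 38383 CPM (counts scaled to a fixed library total). Sex-linked genes differed too, with 749, 2, 233 and 654 counts of the Y-linked Ddx3y and 2668, 8513, 4750 and 2420 of Xist, and the labels give neither the sex nor the number of mice per library. The part of sex in the results was not tested.

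The promoter windows of 6 members with large differences between the libraries are shown, chosen after their values were seen. Other members with differences larger than that of Pdk1, such as Aldoc and Vegfa, are not shown. Each window runs from 250 bases before to 50 after a RefSeq transcript start (build GRCm38.p6), is written 5′ to 3′ on the strand of the gene, and has every ACGTG or GCGTG in capitals, on either strand (so CACGT and CACGC too).
Slc2a1 (chr4:119108495-119108794, plus strand): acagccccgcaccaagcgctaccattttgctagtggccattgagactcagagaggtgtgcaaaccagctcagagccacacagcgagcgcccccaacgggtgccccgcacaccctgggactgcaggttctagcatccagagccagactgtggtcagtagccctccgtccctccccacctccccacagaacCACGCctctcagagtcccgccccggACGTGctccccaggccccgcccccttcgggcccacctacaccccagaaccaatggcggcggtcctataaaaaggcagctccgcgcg
Slc16a3 (chr11:120948817-120949116, plus strand): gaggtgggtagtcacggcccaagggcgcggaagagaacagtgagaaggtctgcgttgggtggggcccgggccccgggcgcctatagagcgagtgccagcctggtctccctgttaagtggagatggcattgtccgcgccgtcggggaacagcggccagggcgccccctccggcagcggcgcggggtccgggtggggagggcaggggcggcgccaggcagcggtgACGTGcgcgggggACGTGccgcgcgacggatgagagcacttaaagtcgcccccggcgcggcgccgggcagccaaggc
Pdk1 (chr2:71872974-71873273, plus strand): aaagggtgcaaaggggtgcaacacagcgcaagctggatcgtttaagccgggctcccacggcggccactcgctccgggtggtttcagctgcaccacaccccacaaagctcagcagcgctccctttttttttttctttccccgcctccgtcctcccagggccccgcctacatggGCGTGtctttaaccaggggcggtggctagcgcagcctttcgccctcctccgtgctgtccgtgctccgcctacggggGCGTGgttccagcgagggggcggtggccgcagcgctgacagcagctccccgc
Adm (chr7:110627407-110627706, plus strand): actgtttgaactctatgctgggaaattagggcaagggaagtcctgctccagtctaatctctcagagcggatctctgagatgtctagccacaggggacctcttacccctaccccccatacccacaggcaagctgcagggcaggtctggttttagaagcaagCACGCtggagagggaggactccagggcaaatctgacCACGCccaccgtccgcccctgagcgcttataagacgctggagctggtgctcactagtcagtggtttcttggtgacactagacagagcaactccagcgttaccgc
Bnip3 (chr7:138909457-138909756, minus strand): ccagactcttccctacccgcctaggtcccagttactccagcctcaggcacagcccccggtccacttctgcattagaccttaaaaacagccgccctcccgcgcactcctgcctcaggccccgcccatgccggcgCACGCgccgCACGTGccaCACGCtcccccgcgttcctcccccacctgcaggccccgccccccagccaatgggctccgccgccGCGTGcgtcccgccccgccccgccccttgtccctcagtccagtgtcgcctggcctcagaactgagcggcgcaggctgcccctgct
Gapdh (chr6:125165724-125166023, minus strand): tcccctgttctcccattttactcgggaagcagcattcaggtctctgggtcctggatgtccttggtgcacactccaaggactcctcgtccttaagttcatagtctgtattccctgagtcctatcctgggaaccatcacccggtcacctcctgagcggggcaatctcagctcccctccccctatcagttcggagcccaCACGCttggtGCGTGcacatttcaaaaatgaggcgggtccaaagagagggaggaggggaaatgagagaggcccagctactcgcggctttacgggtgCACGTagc

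In these windows Slc2a1 had 1 ACGTG and 1 GCGTG, Slc16a3 had 2 ACGTG, Pdk1 and Adm had 2 GCGTG each, Bnip3 had 2 ACGTG and 3 GCGTG, and Gapdh had 1 ACGTG and 2 GCGTG. Pdk1 has a further window, not shown, with no match. The 2 ACGTG of Bnip3 are the overlapping strands of a single CACGTG. RefSeq windows were found for 35 of the 37 listed genes, 53 windows in all, and Bnip3l and Ndrg1 are only named. Car9 and Ankrd37, which have no row of counts, are among the genes with a window. ACGTG was present in 56.6% of the member windows, against 25.3% of 12177 windows of the genes in the tables. The listed genes were chosen for known roles that include the response to low oxygen, so this share says nothing about these libraries. Some windows of the same gene overlap, as for Aldoa and Eno1, so a site can count more than once. GCGTG was present in 54.7% of the member windows, against 51.0% of all windows. The windows also differed in composition, with a mean of 62.3% G and C in member windows and 60.8% in all windows, and the part of this in the shares was not tested. Of the 12 members with a window that were lower in IL-17A WT than untreated WT by the rule given next, 8 had ACGTG, and of the 21 others with a window and a row, 16 did. A match is a description of letters and not a bound site.

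Levels below are CPM over library sizes scaled with TMM factors, which compare a gene between libraries. FPKM, as deposited, is per length and is used where genes are compared with each other. Between 2 libraries, a gene counts as called higher or lower if its ratio reaches 2-fold with a counting interval (exact, 95%, in parentheses) that excludes 1. The interval covers counting error only. The rule was applied to the 12934 genes averaging 1 CPM or more, among them all 35 members. In bulk RNA, fewer cells of a type and less RNA per cell cannot be told apart.

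By FPKM, Pkm was the most abundant member in every library, at 449.5 in IL-17A Il17rc KO, 441 in IL-17A Il17rd KO, 518 in IL-17A WT and 502 in untreated WT. Pfkfb4 was the least abundant in every library, at 1.64, 1.49, 1.07 and 1.54 FPKM in the same order. Ldha ranked 2 or 3 in each library, and Pgk1, Aldoa, Eno1 and Tpi1 ranked between 2 and 7. Of all 35 members, 27 had their lowest CPM in IL-17A WT (77.1%), where 30.0% of all genes tested had theirs. None was lowest in IL-17A Il17rc KO (21.6% of all genes tested were), 2 were lowest in IL-17A Il17rd KO (12.7%) and 6 in untreated WT (35.7%). The summed level of the 35 members was 11727 CPM in IL-17A Il17rc KO, 10913 in IL-17A Il17rd KO, 8571 in IL-17A WT and 11551 in untreated WT.

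**Figure D1:**
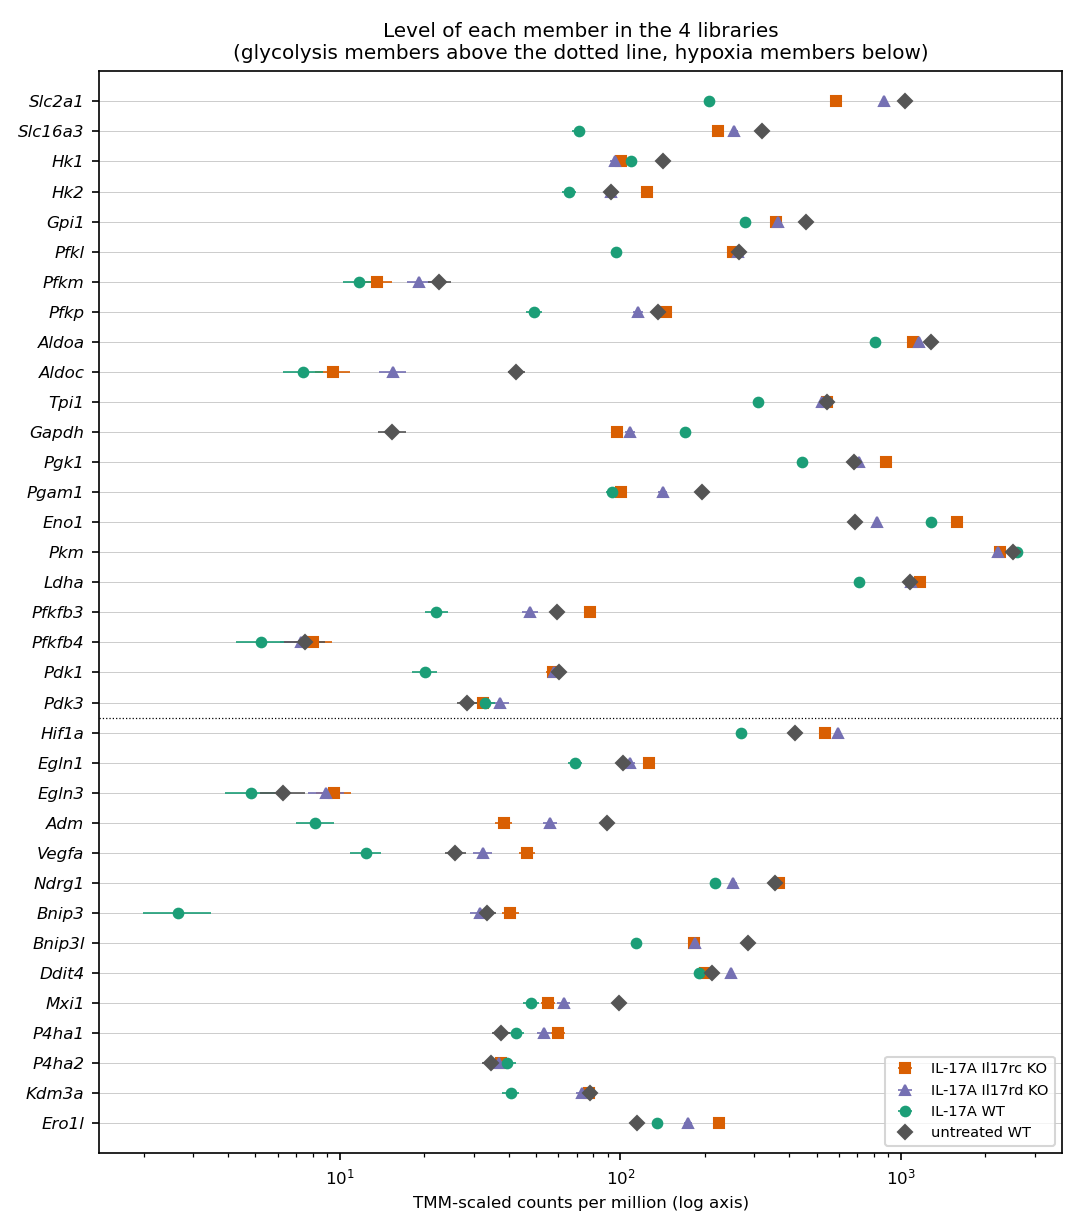
TMM-scaled CPM (log axis) of each of the 35 members in the 4 libraries, with exact 95% Poisson intervals; glycolysis members are above the dotted line and hypoxia members below it. The IL-17A WT point lies furthest left for 27 members, with Bnip3 at 2.66 CPM the lowest, and Gapdh and Eno1 are exceptions with their lowest point in untreated WT.

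IL-17A WT was first set against untreated WT, which addresses what differed in wild-type cells given the cytokine. The 13 members called lower were the transporters Slc2a1 and Slc16a3, the enzymes Pfkl, Pfkp, Aldoc and Pgam1, the kinases Pfkfb3 and Pdk1, and the hypoxia genes Adm, Vegfa, Bnip3, Bnip3l and Mxi1. Of all genes tested, 10.7% were called lower in this comparison. Gapdh was the 1 member called higher, where 8.97% of all genes tested were, and it is treated below with the genes that have pseudogene copies. The median log2 ratio was -0.73 over the 21 glycolysis members and -0.67 over the 14 hypoxia members, against 0.00 over all genes tested. At a threshold of 1.5-fold, 22 members were lower (18.9% of all genes) and 2 higher (17.9%).

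IL-17A WT enters the next comparisons as well, as the library the knockouts are set against, so a member low in that 1 library is lower in the first comparison and higher in both others. IL-17A Il17rc KO had 9 members higher than IL-17A WT, where 6.22% of all genes tested were called higher, and 0 lower, where 4.84% were. IL-17A Il17rd KO had 11 members higher (6.27% of all genes) and 0 lower (3.73%). Median log2 ratios in IL-17A Il17rc KO were 0.61 for glycolysis members and 0.82 for hypoxia members, against 0.04 over all genes. In IL-17A Il17rd KO they were 0.61 and 0.67, against 0.01. At 1.5-fold, 21 members were higher (12.3% of all genes) and 1 lower (9.78%) in IL-17A Il17rc KO, and 20 higher (12.1%) and 2 lower (8.31%) in IL-17A Il17rd KO.

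**Figure D2:**
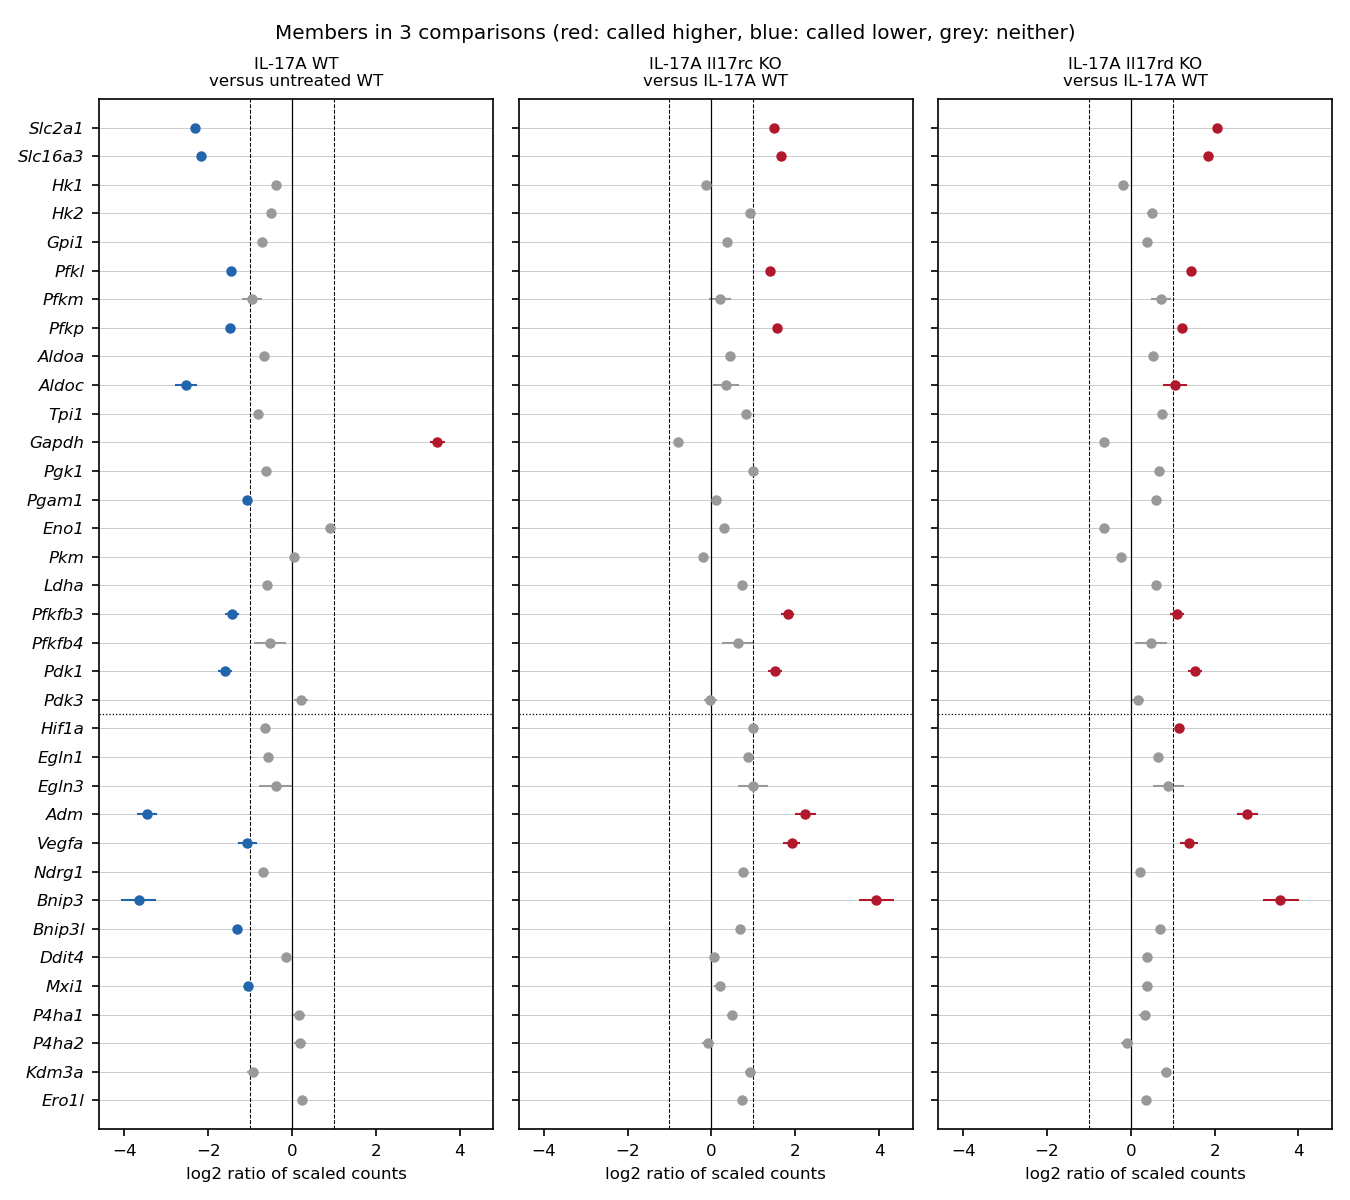
Log2 ratios of scaled counts for the 35 members in 3 comparisons, with exact 95% counting intervals; dashed lines mark 2-fold, and red and blue points are members called higher and lower. The left panel has 13 blue points and 1 red point (Gapdh), and the 2 right panels, which share the IL-17A WT library with it, have 9 and 11 red points and no blue ones.

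Markers of other cells differed between the same libraries. Of 8 fibroblast markers with a row, IL-17A WT had 7 lower (10.7% of all genes tested were) and 0 higher (8.97%) than untreated WT. IL-17A Il17rc KO had 5 (6.22%) and IL-17A Il17rd KO 6 (6.27%) of them higher than IL-17A WT. Their summed level was 159 CPM in IL-17A Il17rc KO, 196 in IL-17A Il17rd KO, 188 in IL-17A WT and 244 in untreated WT, most of it Vim. Col1a1 had 128, 233, 27 and 247 counts in that order. The 8 melanocyte markers summed to 2088, 2260.1, 1639.9 and 2489 CPM, and the 4 immune markers with a row to 6.58, 23.0, 24.5 and 52.9 CPM. The 2 endothelial markers with a row summed to 7.88, 10.5, 17.6 and 10.4 CPM. No marker with a row was at 0, and Dcn, Lum, Ptprc, Cd74, H2-Aa, Cd207, Cdh5, Tie1, Tek and Emcn have no row. Of the 10 keratinocyte markers, 4 were called lower in IL-17A WT than untreated WT (10.7% of all genes) and 0 higher (8.97%). They were Krt15, Krt1, Krt10 and Lor, the last 3 of them genes of differentiating cells. Set against IL-17A WT, both knockout libraries had the same 4 higher (6.22% of all genes for Il17rc KO, 6.27% for Il17rd KO). The other 6 were not called in these comparisons. Ivl, another gene of differentiating cells, had 28.2 CPM in IL-17A WT and 29.6 in untreated WT. In that order, Itga6 had 830 and 443 CPM, and Itgb4 had 2363 and 1280 CPM. Mki67, a gene of dividing cells, had 11189 counts in IL-17A Il17rc KO, 5993 in IL-17A Il17rd KO, 3667 in IL-17A WT and 1750 in untreated WT. The part of these cell types, of differentiation and of cell division in the results on the members was not tested.

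The first members by role are the transporters. Slc2a1 (chromosome 4, 119108711 to 119137983, plus strand, GRCm38) encodes GLUT1, the main glucose transporter of keratinocytes. It had 586 CPM in IL-17A Il17rc KO, 868 in IL-17A Il17rd KO, 208 in IL-17A WT and 1034 in untreated WT. The IL-17A WT library stood lowest, 4.98-fold below untreated WT (4.82 to 5.15), and IL-17A Il17rd KO was nearest to untreated WT. Relative to IL-17A WT, Slc2a1 was 2.82-fold higher (2.72 to 2.92) in IL-17A Il17rc KO and 4.18-fold higher (4.04 to 4.33) in IL-17A Il17rd KO. Slc16a3 (chromosome 11, 120948480 to 120960868, plus strand) encodes MCT4, which exports lactate. Its levels were 224, 255, 71.1 and 319 CPM in the same order of libraries. It was 4.48-fold lower (4.23 to 4.75) in IL-17A WT than untreated WT, and 3.14-fold (2.96 to 3.34) and 3.59-fold (3.38 to 3.81) higher than in IL-17A WT in the Il17rc KO and Il17rd KO libraries.

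The hexokinase genes, whose enzymes trap glucose in the cell, were not called in any of these comparisons. Hk1 had 100.2 CPM in IL-17A Il17rc KO, 95.8 in IL-17A Il17rd KO, 109 in IL-17A WT and 142 in untreated WT, so the 3 IL-17A libraries lay below the untreated one. Hk2, the form known to be induced by HIF, had 124, 92.8, 65.7 and 92.7 CPM in that order. Its IL-17A WT level was 1.41-fold below untreated WT (1.31 to 1.52), and its IL-17A Il17rc KO level was 1.89-fold above IL-17A WT (1.77 to 2.03).

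Phosphofructokinase, the committed step, is encoded by 3 genes, of which Pfkl had the highest FPKM in every library. Pfkl, the liver-type subunit, had 37.8 FPKM in IL-17A Il17rc KO, 39.2 in IL-17A Il17rd KO, 14.4 in IL-17A WT and 39.6 in untreated WT. Pfkp, the platelet-type subunit, had 10.9, 8.59, 3.66 and 10.1 FPKM, and Pfkm, the muscle-type subunit, had 4.58, 6.47, 3.95 and 7.64 FPKM. For both Pfkl and Pfkp, the 2 knockout libraries and untreated WT lay well above IL-17A WT. In IL-17A WT, Pfkl was 2.75-fold (2.61 to 2.90) and Pfkp 2.77-fold (2.57 to 2.99) below untreated WT. The ratio of Pfkm was 1.93-fold below (1.64 to 2.28), short of the size called. Relative to IL-17A WT, Pfkl was 2.62-fold higher (2.48 to 2.76) in IL-17A Il17rc KO and 2.72-fold higher (2.58 to 2.86) in IL-17A Il17rd KO. Pfkp was 2.97-fold (2.76 to 3.19) and 2.35-fold (2.18 to 2.53) higher in the 2 knockout libraries in that order. Pfkm and Pfkp each overlap another annotated gene that has a row, Senp1 and Pitrm1, and no source used here says whether counting used strand.

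The aldolase genes differed in level and in pattern. Aldoa, the main form, had 1101 CPM in IL-17A Il17rc KO, 1163 in IL-17A Il17rd KO, 805 in IL-17A WT and 1279.7 in untreated WT, and was not called. Aldoc, the form named for brain, had 9.42, 15.4, 7.41 and 42.6 CPM, so all 3 IL-17A libraries lay below untreated WT. It was 5.74-fold lower (4.81 to 6.90) in IL-17A WT than untreated WT and 2.08-fold higher (1.71 to 2.55) in IL-17A Il17rd KO than in IL-17A WT. The ratio of Aldoc between IL-17A Il17rc KO and IL-17A WT was 1.27 (1.02 to 1.59). Gpi1, which converts glucose 6-phosphate to fructose 6-phosphate, and Tpi1, the triose phosphate isomerase, had 277 and 309 CPM in IL-17A WT and between 358 and 547 CPM in the other libraries, and neither was called. Tpi1 overlaps Spsb2, which has a row.

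Of the enzymes from triose phosphate to lactate, Pgk1, Ldha and Pgam1 were lowest in IL-17A WT and Gapdh, Eno1 and Pkm were not. Pgk1, the first enzyme of the pathway to make ATP, had 883 CPM in IL-17A Il17rc KO, 710.1 in IL-17A Il17rd KO, 443 in IL-17A WT and 679 in untreated WT. Its ratio of IL-17A Il17rc KO to IL-17A WT was 1.99 (1.94 to 2.05), just short of the size called. Ldha, the lactate dehydrogenase subunit favoured in glycolytic cells, had 1171, 1082, 710.0 and 1078 CPM. Pgam1, the phosphoglycerate mutase, had 100.1, 142, 93.1 and 195 CPM and was 2.09-fold lower (1.98 to 2.22) in IL-17A WT than untreated WT. Pkm, the pyruvate kinase gene, had 2252, 2212, 2596 and 2514 CPM, so the most abundant member differed least among these 6 enzymes.

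Eno1, the enolase gene, followed another order. It had 1583 CPM in IL-17A Il17rc KO, 820.1 in IL-17A Il17rd KO, 1276 in IL-17A WT and 686 in untreated WT. It was high in IL-17A Il17rc KO and IL-17A WT and low in the other 2 libraries. In IL-17A WT it was 1.86-fold above untreated WT (1.82 to 1.90), short of the size called, and in IL-17A Il17rc KO it was 1.93-fold above IL-17A Il17rd KO (1.90 to 1.97).

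The regulatory kinases split into a pair that was called and a pair that was not. Pfkfb3 makes fructose 2,6-bisphosphate, the activator of phosphofructokinase, and had 77.8 CPM in IL-17A Il17rc KO, 47.6 in IL-17A Il17rd KO, 22.1 in IL-17A WT and 59.4 in untreated WT. It was 2.69-fold lower (2.41 to 3.01) in IL-17A WT than untreated WT, and 3.52-fold (3.17 to 3.93) and 2.16-fold (1.92 to 2.42) higher than IL-17A WT in the Il17rc KO and Il17rd KO libraries. Pdk1, a kinase that turns off pyruvate dehydrogenase, had 57.7, 57.9, 20.03 and 60.3 CPM. The intervals of the ratios of Pdk1 among the 2 knockout libraries and untreated WT included 1, and IL-17A WT was 3.01-fold (2.68 to 3.38) below untreated WT. Relative to IL-17A WT, Pdk1 was 2.88-fold (2.57 to 3.24) higher in IL-17A Il17rc KO and 2.89-fold (2.58 to 3.25) higher in IL-17A Il17rd KO. Pfkfb4, of the same family as Pfkfb3, had 8.03, 7.25, 5.21 and 7.51 CPM and Pdk3, of the same family as Pdk1, had 32.4, 37.2, 33.0 and 28.5 CPM, and neither was called in any comparison.

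The genes of oxygen sensing lay lowest in IL-17A WT by smaller ratios. Hif1a, the oxygen-regulated subunit of HIF-1, had 536 CPM in IL-17A Il17rc KO, 595 in IL-17A Il17rd KO, 269 in IL-17A WT and 419 in untreated WT. It was called in 1 comparison, 2.21-fold higher (2.14 to 2.28) in IL-17A Il17rd KO than in IL-17A WT, and its ratio of 1.99 (1.93 to 2.06) in IL-17A Il17rc KO fell just short. Egln1, which encodes the prolyl hydroxylase PHD2, had 126, 108, 68.9 and 102 CPM, and Egln3, which encodes PHD3 and is itself induced by HIF, had 9.52, 8.91, 4.803 and 6.26 CPM. Neither was called. The interval of Egln3 between IL-17A WT and untreated WT reached from 1.73-fold lower to above equality.

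Bnip3 and Adm had the largest ratios of all hypoxia members between IL-17A WT and the other libraries. Bnip3, a mitochondrial protein of the BCL2 family that promotes mitophagy, had 812 counts in IL-17A Il17rc KO, 648 in IL-17A Il17rd KO, 52 in IL-17A WT and 640 in untreated WT. IL-17A WT stood alone at the low end, and it was 12.6-fold below untreated WT (9.46 to 17.0). IL-17A Il17rc KO was 15.2-fold (11.5 to 20.6) and IL-17A Il17rd KO 11.9-fold (8.94 to 16.1) above IL-17A WT. Bnip3 has 3 annotated pseudogenes without a row, so its count is uncertain. Adm, which encodes the vasodilator peptide adrenomedullin, had 38.4 CPM in IL-17A Il17rc KO, 56.2 in IL-17A Il17rd KO, 8.18 in IL-17A WT and 89.2 in untreated WT. It has no near-identical copy. It was 10.9-fold lower (9.27 to 12.9) in IL-17A WT than untreated WT, and 4.70-fold (3.96 to 5.60) and 6.87-fold (5.82 to 8.16) higher than IL-17A WT in the Il17rc KO and Il17rd KO libraries.

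Vegfa, the angiogenic growth factor gene, had 46.5 CPM in IL-17A Il17rc KO, 32.2 in IL-17A Il17rd KO, 12.4 in IL-17A WT and 25.8 in untreated WT. Both knockout libraries exceeded untreated WT, and IL-17A WT was 2.09-fold below it (1.79 to 2.45). Relative to IL-17A WT, Vegfa was 3.76-fold higher (3.26 to 4.35) in IL-17A Il17rc KO and 2.61-fold higher (2.25 to 3.03) in IL-17A Il17rd KO. Ndrg1, a stress-responsive gene, had 369, 253, 218 and 354 CPM and was not called.

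Bnip3l, the mitophagy receptor gene related to Bnip3, had 183 CPM in IL-17A Il17rc KO, 184 in IL-17A Il17rd KO, 114 in IL-17A WT and 284 in untreated WT, and was 2.50-fold lower (2.38 to 2.63) in IL-17A WT than untreated WT. Mxi1, a repressor that competes with MYC for its partner MAX, had 55.2, 62.8, 48.0 and 98.8 CPM and was 2.06-fold lower (1.90 to 2.23) in the same comparison. For both genes the 3 IL-17A libraries lay below untreated WT. Ddit4, an inhibitor of mTORC1, had 199.7, 248, 191 and 212 CPM and was not called.

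The remaining hypoxia genes serve collagen modification, chromatin and protein oxidation. Kdm3a, a histone demethylase, had 77.0 CPM in IL-17A Il17rc KO, 73.0 in IL-17A Il17rd KO, 40.7 in IL-17A WT and 78.2 in untreated WT, with a ratio 1.92-fold below untreated WT (1.76 to 2.09) in IL-17A WT that was short of the size called. P4ha1 and P4ha2 encode collagen prolyl 4-hydroxylase subunits, and Ero1l encodes an oxidase of the endoplasmic reticulum. These 3 genes were not lowest in IL-17A WT. Their levels in untreated WT were 37.6, 34.6 and 115 CPM, lower than in any IL-17A library. Ero1l had 225 CPM in IL-17A Il17rc KO, 174 in IL-17A Il17rd KO and 135 in IL-17A WT. P4ha1 had 59.7, 53.5 and 42.5 CPM and P4ha2 had 37.5, 37.1 and 39.5 CPM in these 3 libraries in the same order. None of the 3 was called against IL-17A WT or untreated WT.

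**Figure D3:**
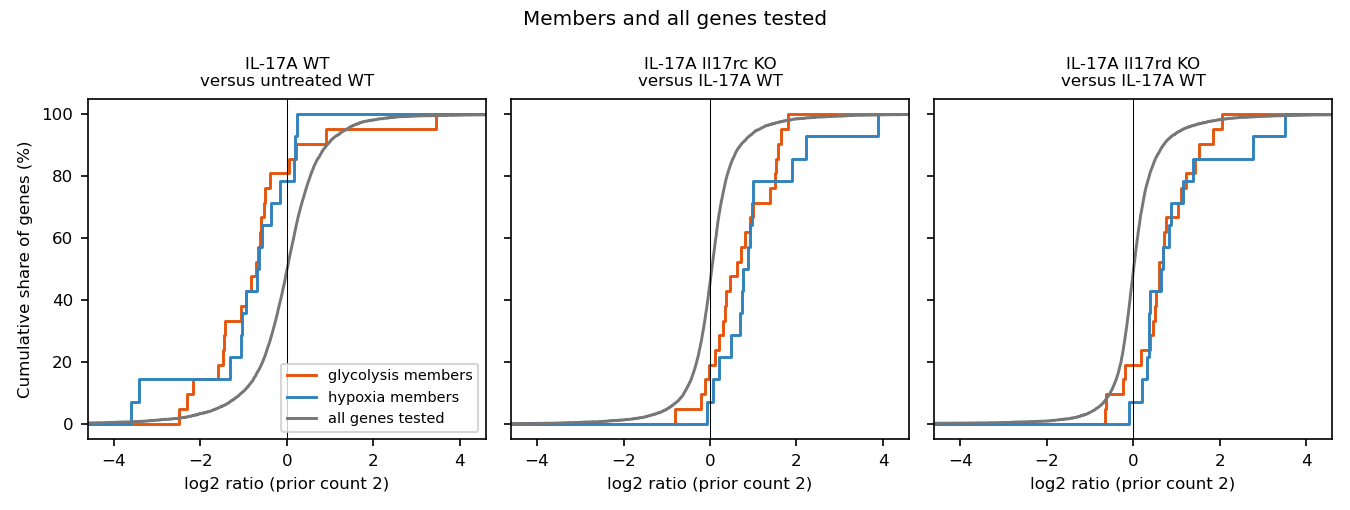
Cumulative share of genes (percent) against the log2 ratio in 3 comparisons, for 21 glycolysis members, 14 hypoxia members and the 12934 genes tested. Both member curves lie left of the grey curve in the first panel, with medians of -0.73 and -0.67, and right of it in the panels of the knockouts, with medians from 0.61 to 0.82.

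The 2 knockout libraries were also compared with each other. No member was called higher or lower in IL-17A Il17rc KO than in IL-17A Il17rd KO, where 1.49% of all genes tested were called higher and 2.75% lower. At 1.5-fold, Eno1 and Pfkfb3 were higher (5.27% of all genes) and Aldoc was lower (6.94%). The median log2 ratio over all 35 members was 0.03, with members from -0.71 to 0.95, and over all genes it was 0.02. Slc2a1 was 1.48-fold (1.45 to 1.52) and Adm 1.46-fold (1.33 to 1.61) lower in IL-17A Il17rc KO, so the differences were beyond counting error but small beside those from IL-17A WT, and with 1 library each they do not show that the knockouts act alike or differ.

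Each knockout library was last set against untreated WT, a comparison that leaves out IL-17A WT. IL-17A Il17rc KO had Gapdh and Eno1 higher (7.27% of all genes tested) and Aldoc and Adm lower (7%). IL-17A Il17rd KO had Gapdh higher (5.36%) and Aldoc lower (3.35%). Adm was 2.32-fold lower (2.13 to 2.53) in IL-17A Il17rc KO, and Aldoc 4.52-fold (3.85 to 5.32) and 2.76-fold (2.42 to 3.15) lower in the Il17rc KO and Il17rd KO libraries. By level, 18 members of the Il17rc KO library and 22 of the Il17rd KO library lay between the 2 WT libraries, and 15 and 11 lay above both. These counts bring IL-17A WT in again. Such places were not counted over all genes tested, so whether the members are unusual in this cannot be told.

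Genes with pseudogene copies need separate reading, since reads of near-identical sequence can be assigned to either place or discarded, and no source used here says how such reads were handled. A copy was counted where another annotated gene, not overlapping the member, matched its transcript over 50% or more of either sequence with an identity of at least 95%. This held for 10 of the 35 members, namely Gapdh, Pgk1, Eno1, Bnip3, Ldha, Gpi1, Tpi1, Pgam1, Pkm and Bnip3l. Gapdh had 78 copies, 76 of them annotated as pseudogenes, Pgk1 had 4, Eno1 and Bnip3 had 3 each, Ldha had 2 and the others 1 each.

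Gapdh, the glyceraldehyde 3-phosphate dehydrogenase often used as a reference transcript, had 1945 counts in IL-17A Il17rc KO, 2225 in IL-17A Il17rd KO, 3319 in IL-17A WT and 294 in untreated WT. Untreated WT stood far below the 3 IL-17A libraries, and IL-17A WT was 11.1-fold above it (9.81 to 12.5). Per length its level was 23.4, 26.2, 41.0 and 3.70 FPKM, so it ranked 19, 19, 12 and 33 by FPKM among the 35 members, while the next enzyme, Pgk1, had 197 FPKM or more in every library. Only 2 of its copies have a row, with summed counts of 59 in IL-17A Il17rc KO, 40 in IL-17A Il17rd KO, 47 in IL-17A WT and 15 in untreated WT. Gapdh also overlaps Iffo1, which has a row. With the copies added the ratio of IL-17A WT to untreated WT was 10.7 (9.49 to 12.0). Copies without a row were not analysed here, and the part of misassigned or discarded reads in the Gapdh values was not tested.

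Of the copies with a row, the largest was Gm6560, a processed pseudogene of Pkm, with 1322 counts in IL-17A Il17rc KO, 1498 in IL-17A Il17rd KO, 1443 in IL-17A WT and 1596 in untreated WT, small beside the 45169 to 50807 counts of Pkm. Eno1b, a protein-coding copy of Eno1 at 99.5% identity, had 149, 173, 482 and 274 counts. Tpi-rs11, a copy of Tpi1, had 135, 143, 63 and 262 counts, and Pgam1-ps2 had 74, 132, 24 and 127, so both were lowest in IL-17A WT like the genes they copy. Not all copies followed their genes. Eno1b was lowest in IL-17A Il17rc KO, where Eno1 was highest. Bnip3l-ps, with 99, 144, 104 and 231 counts, was lowest in IL-17A Il17rc KO, while Bnip3l was lowest in IL-17A WT. Adding the rows of copies to the 7 members that have any changed 0 of the 28 calls, and the largest shift of a log2 ratio was 0.05, for Gapdh in IL-17A WT against untreated WT. The 25 members without a copy had 10 lower (10.7% of all genes tested were) and 0 higher (8.97%) in IL-17A WT than untreated WT, and their median log2 ratio was -0.70. That pooled median hides a shift within the glycolysis members. Those without a copy had a median of -1.42, the value of Pfkfb3, against -0.73 with all glycolysis members. The median of the hypoxia members without a copy lay between the values of Hif1a (-0.64) and Egln1 (-0.57).

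**Figure D4:**
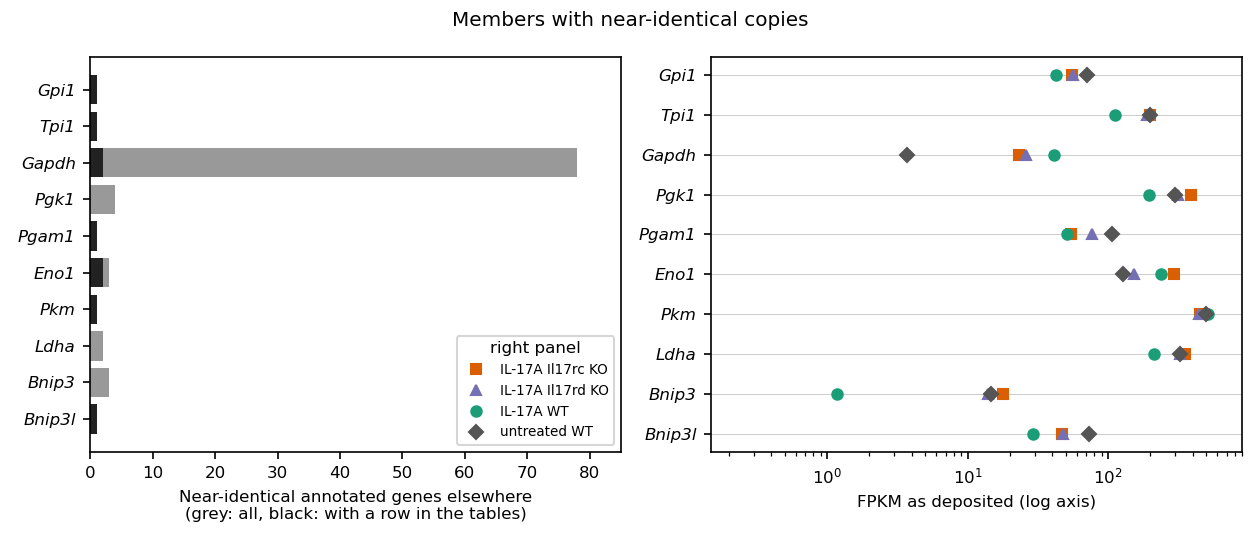
Left, the number of near-identical annotated genes elsewhere for the 10 members that have any (grey) and the number of these with a row (black); right, FPKM as deposited (log axis) of the same members in the 4 libraries. Gapdh has 78 copies, 2 with a row, and its untreated WT point at 3.70 FPKM lies apart from its other libraries.

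Other genes of the same pathways, taken from lists made by function, were set beside the members. In IL-17A WT against untreated WT, 11 of 29 further hypoxia-inducible genes with a row were lower (10.7% of all genes tested were) and 4 higher (8.97%), and the list's median log2 ratio was -0.53. Rora, a nuclear receptor gene, and Rragd, a GTPase gene of mTORC1 signalling, were 4.29-fold (3.70 to 4.99) and 4.03-fold (3.31 to 4.93) lower. In IL-17A Il17rc KO against IL-17A WT, 7 of the 29 were higher (6.22% of all genes) and 4 were lower (4.84%), and the median log2 ratio was 0.31. Stc2, a secreted glycoprotein gene, and Ak4, a mitochondrial adenylate kinase gene, stood 4.87-fold (3.98 to 6.00) and 4.64-fold (4.14 to 5.21) higher. In IL-17A Il17rd KO, 6 were higher (6.27% of all genes) and 3 were lower (3.73%), and the median log2 ratio was 0.33. Fam162a and the carbonic anhydrase gene Car12 were 4.50-fold (4.21 to 4.81) and 4.41-fold (4.06 to 4.78) higher. Between the knockouts, 2 of the 29 were lower in IL-17A Il17rc KO (2.75% of all genes) and 0 were higher (1.49%). Angptl4, a lipase inhibitor gene, was 4.43-fold lower (3.66 to 5.39). Cxcr4, a chemokine receptor gene, was 2.83-fold lower (1.34 to 6.51), on only 10 and 29 counts.

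**Figure D5:**
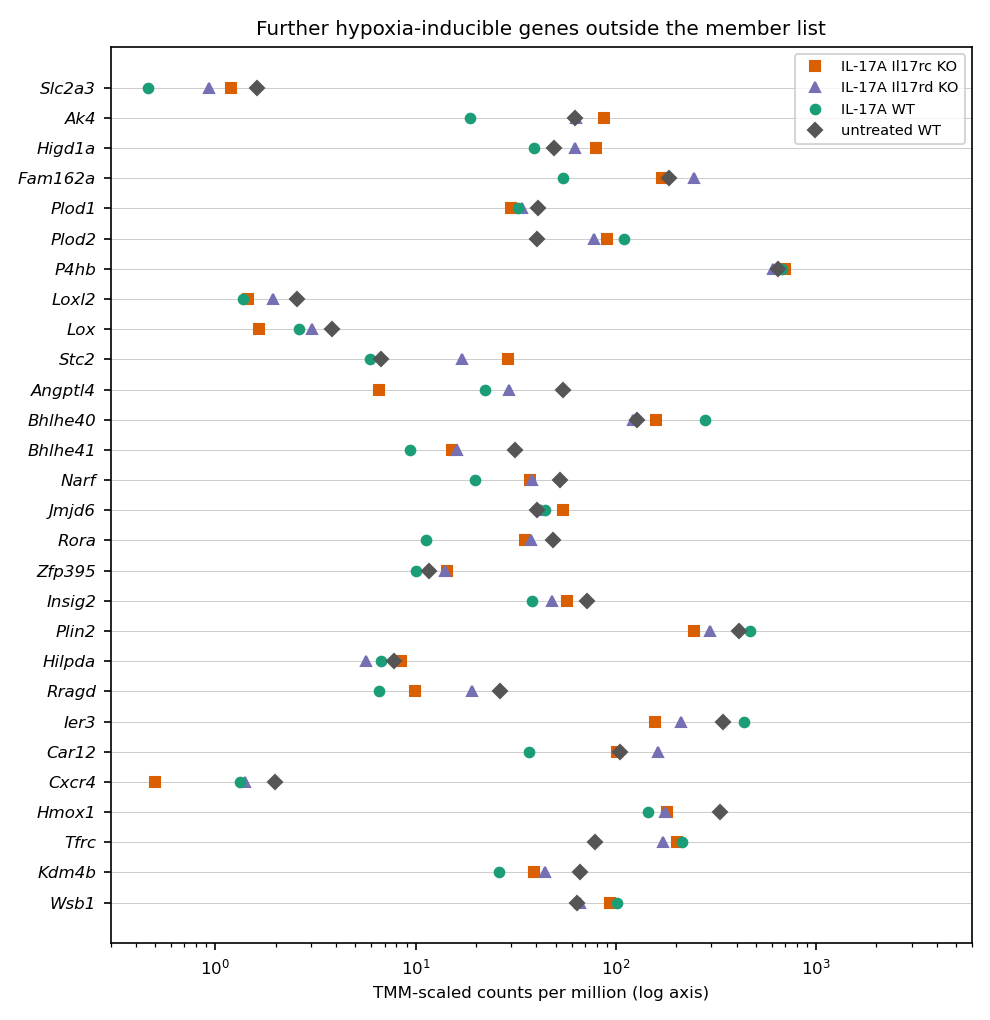
TMM-scaled CPM (log axis) of 28 of the 29 further hypoxia-inducible genes with a row in the 4 libraries. Genes such as Ak4, Fam162a and Car12 have their lowest point in IL-17A WT, and Bhlhe40 has its highest there.

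Of 11 HIF pathway components, IL-17A WT had 3 lower (10.7% of all genes tested were) and 0 higher (8.97%) than untreated WT. Epas1, which encodes HIF-2 alpha, had 194 counts in IL-17A Il17rc KO, 213 in IL-17A Il17rd KO, 90 in IL-17A WT and 472 in untreated WT. It was lowest in IL-17A WT, 5.35-fold below untreated WT (4.27 to 6.78), and was 2.10-fold (1.63 to 2.73) and 2.26-fold (1.75 to 2.92) above IL-17A WT in the Il17rc KO and Il17rd KO libraries. Cited2, whose protein competes with HIF for p300, was 3.89-fold lower (3.66 to 4.14) in IL-17A WT than untreated WT, and all 3 IL-17A libraries were below untreated WT, at 53.1, 84.9 and 64.0 CPM against 249. Siah1a, a ubiquitin ligase gene, was 2.14-fold lower (1.84 to 2.50). Hif3a was 2.83-fold lower (1.60 to 5.26) in IL-17A Il17rc KO than in IL-17A WT, on 17 and 47 counts. Arnt, the partner of the HIF subunits, had 81.2, 81.9, 82.8 and 84.3 CPM in the 4 libraries.

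The neighbouring routes of glucose carbon were read against the same shares of all genes tested, 10.7% lower and 8.97% higher in IL-17A WT than untreated WT. Against IL-17A WT the shares were 6.22% higher and 4.84% lower in IL-17A Il17rc KO, and 6.27% and 3.73% in IL-17A Il17rd KO. For IL-17A Il17rc KO against IL-17A Il17rd KO they were 1.49% higher and 2.75% lower. Of 7 pentose phosphate pathway genes, 0 were called in any of these 4 comparisons, and so few genes cannot show a share below these. Of 18 genes of pyruvate use and the citric acid cycle, 1 was called, Slc16a1, which encodes the lactate and pyruvate transporter MCT1. It had 84.4 CPM in IL-17A Il17rc KO, 81.4 in IL-17A Il17rd KO, 80.3 in IL-17A WT and 28.7 in untreated WT, so it was higher in all 3 IL-17A libraries, unlike Slc16a3. Of 9 glycogen and gluconeogenesis genes with a row, 1 was lower in IL-17A WT, a share near that of all genes. It was Pygl, the liver glycogen phosphorylase, which was 2.09-fold lower (1.61 to 2.73) in IL-17A WT than untreated WT. Pcx, the pyruvate carboxylase gene, was 2.02-fold (1.68 to 2.43) and 2.19-fold (1.83 to 2.62) higher in the Il17rc KO and Il17rd KO libraries than in IL-17A WT. Of 13 MYC and growth-linked metabolic genes, IL-17A WT had 3 higher (8.97% of all genes tested were) and 0 lower (10.7%) than untreated WT, with Odc1, the first enzyme of polyamine synthesis, 12.6-fold higher (11.6 to 13.7). Odc1 was 3.30-fold (3.15 to 3.45) and 5.19-fold (4.92 to 5.48) lower than IL-17A WT in the Il17rc KO and Il17rd KO libraries. The 13 genes did not follow Odc1 as a set. In IL-17A Il17rc KO 1 was called lower (4.84% of all genes), with 9 log2 ratios above 0 and 4 below. In IL-17A Il17rd KO 2 were called lower (3.73%), with 6 above 0 and 7 below. Slc1a5, a glutamine transporter gene, was 2.01-fold higher (1.70 to 2.39) in IL-17A WT than untreated WT. Mycn, of the MYC family, was 2.66-fold higher (1.41 to 5.31) in the same comparison, on 38 and 14 counts. Mycn stood 3.99-fold lower (1.95 to 8.98) in IL-17A Il17rd KO than in IL-17A WT, and in IL-17A Il17rc KO it was 2.56-fold higher (1.19 to 5.97) than in IL-17A Il17rd KO. Between the knockouts, Pygl was 2.39-fold (1.77 to 3.27) and Hif3a 2.24-fold (1.24 to 4.22) lower in IL-17A Il17rc KO.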

How the data were processed

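RNA-seq was measured in 4 keratinocyte libraries, 1 per group. Per the submitters' processing notes, Trim Galore 0.4.4, HISAT2, featureCounts of Subread and edgeR were used with build mm10; settings, annotation, strand use and the treatment of multiply mapping reads are not stated there. The authors deposited whole-number counts per gene, not normalized, and FPKM values, whose implied library sizes have the ratios of the TMM-scaled sizes computed here. Library totals of 19711866 to 19904695 counts set the counting precision.

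TMM factors (edgeR 4.0.16, R 4.3.3) scaled the library sizes. Folds are ratios of scaled counts with exact 95% conditional binomial (Clopper-Pearson) intervals (scipy 1.17.1), which cover counting error only, since PCR copies of one molecule cannot be recognised. Log2 ratios add a prior count of 2. The 12934 genes averaging 1 CPM or more were called at 2-fold with an interval excluding 1. The rule was tested on simulated counts with counting error only and with changes well above 2-fold. That test therefore cannot tell how often variation between dishes gives a call, or how changes near 2-fold are called. With 1 library per group neither edgeR nor DESeq2 (1.42.0, used for size factors) gives a test. Copies were found with BLAST 2.17.0 among GENCODE M21 transcripts (GRCm38), and promoter windows are RefSeq's. All 37 listed members are named. Of each pathway list, up to 3 called genes with the largest log2 ratio in size are named in the 4 comparisons other than those of a knockout with untreated WT, where these lists are not reported; other genes named from the pathway and marker lists were chosen after their values were seen. The values of 1 further gene that this rule names in those 4 comparisons are not reported here. Members, lists and tests were chosen with earlier results of these data known. Other scalings, filters, prior counts and thresholds were tried.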

Additional observations from a re-analysis of the deposited data

How the results depend on the processing

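The counts of members called were recomputed in the 4 comparisons under DESeq2 size factors, library totals, upper-quartile factors, no filter on low counts and a 1.5-fold threshold, without the members that have near-identical copies, and, chosen after seeing the data, with the 2-fold rule on the log2 ratio or with the copies' rows added. With the 1.5-fold threshold, IL-17A WT against untreated WT had 2 higher and 22 lower, IL-17A Il17rc KO against IL-17A WT had 21 higher and 1 lower, IL-17A Il17rd KO against IL-17A WT had 20 higher and 2 lower, and IL-17A Il17rc KO against IL-17A Il17rd KO had 2 higher and 1 lower. Without the members that have copies, IL-17A WT had 0 higher than untreated WT, since Gapdh was the 1 called. All other counts stayed within 1.5 times. Leaving out the members with copies moved 5 of the glycolysis and hypoxia medians beyond their counting intervals and left 3 within them. DESeq2 size factors changed 0 of 140 calls of single members, upper-quartile factors 1 (Mxi1) and library totals 3 (Pgk1, Hif1a and Egln3, which were then higher in IL-17A Il17rc KO than in IL-17A WT), and no called member changed sign. Log2 ratios of single members left their counting intervals in 31 of 140 cases under library totals. Under upper-quartile factors 29 did, and under DESeq2 size factors 1 did. The largest shift was 0.083, under library totals. Library totals and upper-quartile factors each changed the sign of 3 ratios, none of them of a called member. No scaling moved the median of all genes by over 0.1. No paired analysis was possible because each group has 1 library, and for the same reason no library could be left out. Between-dish variation is not measured by the counting intervals, and low counts limit chiefly the values of Pfkfb4, Egln3 and, in IL-17A WT, Bnip3.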
